A study of Mus musculus with 42 samples.

Results

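Liver transcripts of 10 genes of methionine, betaine and choline metabolism were followed in the 42 mice, out of 54446 genes in the count table. The genes were chosen by their place in the pathway, with earlier results of these data known, and taken by symbol. They were Mat1a, Gnmt, Pemt, Ahcy, Bhmt, Bhmt2, Cbs, Cth, Chdh and Dmgdh. Counts of called genes set beside the share of all genes are therefore not independent of that choice. All 10 were among the 15574 genes that passed the filter on low counts. Each mouse was a female carrying the APOE*3-Leiden transgene, which gives a lipoprotein profile that responds to dietary cholesterol, and 1 liver library was made per mouse. The reference group of 10 mice stayed on maintenance chow. The 16 mice on the Western-type diet (WTD) entered at 8 to 14 weeks of age and ate 15% cocoa butter, 40.5% sucrose and 1% cholesterol, first for a run-in of 3 weeks and then until week 32. A second group of 16 mice had the same diet and run-in, with atorvastatin, an inhibitor of cholesterol synthesis, mixed into the food at 3.0 mg/kg/day and at 4.5 mg/kg/day from week 5. Both WTD groups also received 0.05% sodium cholate from week 22, which the chow group did not. The age of the chow mice and the methionine and choline content of the diets are not given in the sources used here, so fat, sucrose, cholesterol, cholate and other components of the WTD cannot be told apart. All chow mice have labels that begin with AZ, and all mice of both WTD groups have labels that begin with Gen. What the prefixes stand for is not given, so any difference that goes with them cannot be told apart from diet.

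The pathway begins with methionine, which is activated to S-adenosylmethionine (SAM), the main donor of methyl groups in the cell. After SAM has given its methyl group, the remaining homocysteine is either methylated back to methionine, with folate or with betaine as the donor, or passed through cystathionine to cysteine. Choline links both branches, since its oxidation yields betaine and since the liver can make phosphatidylcholine by methylating phosphatidylethanolamine with SAM. The liver is the main site of this metabolism and hepatocytes hold most of its enzymes.

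Of the 10 genes, 3 lie side by side on chromosome 13 (GRCm38). Bhmt (13:93616675-93637961) and Bhmt2 (13:93655720-93674302) are on the minus strand, and Dmgdh (13:93674433-93752833) is on the plus strand. Bhmt2 and Dmgdh are transcribed away from each other, with 130 bases between their annotated starts, whereas 17758 bases separate Bhmt from Bhmt2. The first sequence below is shown because it covers the start of both Bhmt2 and Dmgdh, with the bases between the starts in capitals (chr13:93674186-93674485, plus strand, RefSeq on GRCm38.p6). The second is the RefSeq start window of Bhmt, the neighbour that was lowered most (chr13:93637709-93638008, minus strand), with matches to the CCAAT motif or its reverse complement in capitals. RefSeq places the Bhmt start inside the gene as annotated by GENCODE, whose positions are given above, so 47 bases of this window lie before the GENCODE start and 253 within the gene.
Bhmt2 and Dmgdh: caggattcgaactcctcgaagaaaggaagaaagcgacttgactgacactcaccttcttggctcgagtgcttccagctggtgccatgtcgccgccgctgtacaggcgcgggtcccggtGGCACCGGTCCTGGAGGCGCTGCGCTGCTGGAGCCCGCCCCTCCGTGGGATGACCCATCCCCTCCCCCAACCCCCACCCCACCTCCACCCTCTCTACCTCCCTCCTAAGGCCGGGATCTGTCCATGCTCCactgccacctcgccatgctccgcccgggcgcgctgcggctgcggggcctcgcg
Bhmt: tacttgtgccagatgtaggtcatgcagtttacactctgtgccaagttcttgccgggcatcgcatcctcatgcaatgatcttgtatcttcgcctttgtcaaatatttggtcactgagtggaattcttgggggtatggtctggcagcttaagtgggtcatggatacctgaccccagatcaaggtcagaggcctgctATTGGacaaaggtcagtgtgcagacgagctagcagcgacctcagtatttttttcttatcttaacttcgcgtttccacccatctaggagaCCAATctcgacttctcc
The stretch between the starts of Bhmt2 and Dmgdh held 70.8% G or C, and the whole Bhmt window held 48.0%. Exact matches were sought on both strands for the TATA box (TATAAA), the CCAAT box, the E-box (CACGTG) and an Hnf4a-type motif (CAAAGTCCA) in the RefSeq windows of 300 bases, which were found for 8 of the 10 genes and not for Mat1a and Cth. CCAAT, held by 37.4% of all 32851 windows, was in those of Bhmt, Ahcy, Gnmt, Cbs and 1 of 2 windows of Pemt. CACGTG, held by 7.15% of all windows, was in that of Cbs. No match to the TATA box (13.6% of all windows) or to the Hnf4a-type motif (0.475%) was found for the 8 genes, and the windows of Bhmt2, Dmgdh and Chdh held none of the 4 motifs.

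Scaled to all genes, most of the 10 transcripts were lower in whole liver of WTD-fed than of chow-fed mice. In WTD-fed compared with chow-fed mice, 9 of the 10 genes fell and all 10 fold changes were negative, the median of the log2 fold changes being -1.02, whereas the median over all tested genes was 0.03. A gene was called at an adjusted p under 0.01 in the quasi-likelihood test of edgeR with Benjamini-Hochberg adjustment. By that rule 33.5% of all tested genes were called in this comparison, 17.5% higher and 16% lower. The 10 genes were chosen with earlier results of these data known, as given above. Cth and Bhmt fell most (log2 fold changes of -1.88 for both), and Chdh did not pass (-0.20).

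With atorvastatin, 7 of the 10 genes were higher than in WTD-fed mice and all 10 fold changes were positive, their median log2 fold change being 0.40 and that of all genes 0.00. In this comparison 7.1% of tested genes were called, 4.84% higher and 2.26% lower. The 3 genes that did not pass were Bhmt, Cth and Chdh. Compared with chow, 8 of the 10 genes were lower in the atorvastatin group, with a median of -0.58 against 0.04 over all genes, and the exceptions were Cbs and Chdh. Called genes made up 25% of those tested there, 14.2% higher and 10.7% lower. The 3 comparisons share groups of mice, so their values are given side by side and were not combined.

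**Figure D1:**
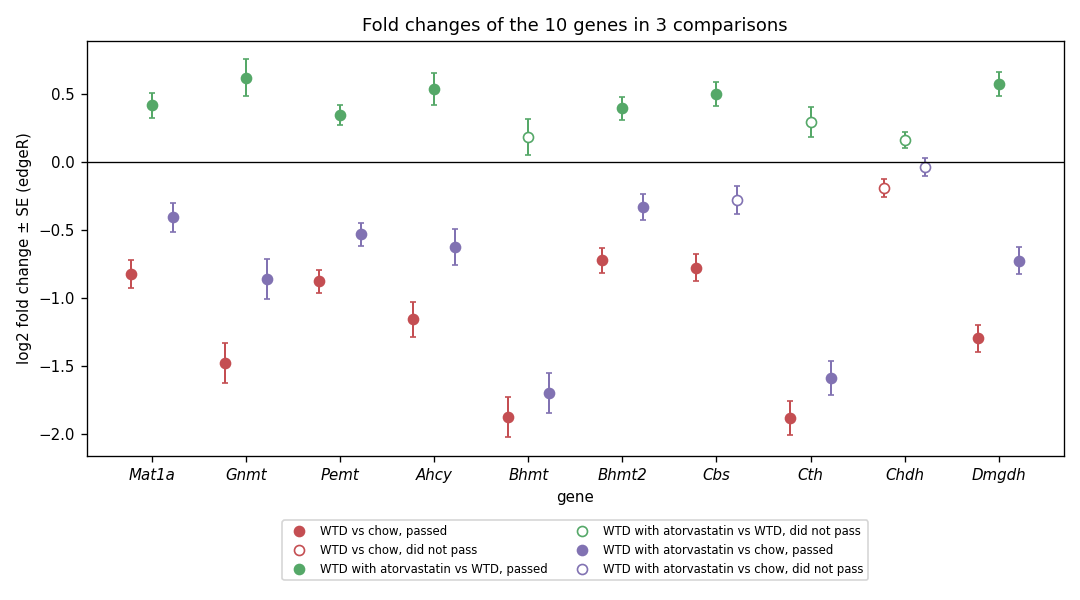
Log2 fold change (vertical axis, edgeR, bars are the SE) of each of the 10 genes (horizontal axis) in the 3 comparisons; filled points passed an adjusted p under 0.01. All WTD and chow differences lie below 0, from -0.20 for Chdh to -1.88 for Cth and Bhmt, and all differences between atorvastatin and WTD lie above 0, up to 0.62 for Gnmt.

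These levels come from whole liver, in which fewer cells of a type and less RNA per cell cannot be told apart. A list of 12 hepatocyte genes, among them Alb, Ttr and Hnf4a, fell as well. All 12 were lower in WTD-fed than in chow-fed mice, 7 were higher with atorvastatin than without, and 9 remained lower with atorvastatin than on chow. Their summed level was 117728 to 164823 CPM (counts scaled to the TMM-adjusted library size) on chow, 53894 to 110189 on WTD and 67715 to 132518 with atorvastatin. Markers of other cells moved the opposite way. The sum of 10 macrophage genes was 396 to 635 CPM on chow, 2430 to 4355 on WTD and 1751 to 3072 with atorvastatin, and 8 of them were higher on WTD than on chow. Of 10 stellate cell and fibroblast genes 6 were higher on WTD, with sums of 404 to 686 CPM on chow, 1153 to 2639 on WTD and 1042 to 2488 with atorvastatin. All 8 cholangiocyte genes were higher on WTD, with sums of 117 to 197, 230 to 933 and 262 to 670 CPM, and 3 of the 4 tested neutrophil genes. Lymphocyte genes (1 of 10 higher) and endothelial genes (2 of 8 higher, 2 lower) had few calls. Of genes with zonal expression, 5 of 7 pericentral and 8 of 9 periportal genes were lower on WTD than on chow. The part of these cells in the fall of the methionine genes was not tested.

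For this reason each comparison was also scaled to the 12 hepatocyte genes instead of to all genes by TMM. With this hepatocyte scaling the median log2 fold change of all genes became 0.82 on WTD relative to chow, -0.30 for atorvastatin relative to WTD and 0.53 relative to chow, from 0.03, 0.00 and 0.04. Under it, 62.6% of all genes were called higher and 2.22% lower on WTD than on chow, whereas of the 10 genes 5 were lower (Gnmt, Bhmt, Ahcy, Cth and Dmgdh) and 1 was higher (Chdh). Between atorvastatin and WTD, 0.905% of all genes were called higher and 17.3% lower, and of the 10 genes only Dmgdh was called, higher. Between atorvastatin and chow, 44.3% were called higher and 1.72% lower, with Gnmt, Bhmt, Cth and Dmgdh lower and Chdh higher. Thus Mat1a, Bhmt2, Cbs and Pemt fell on WTD in proportion to all genes, but differed from chow by -0.09 to 0.051 on the log2 scale in proportion to the hepatocyte genes.

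**Figure D2:**
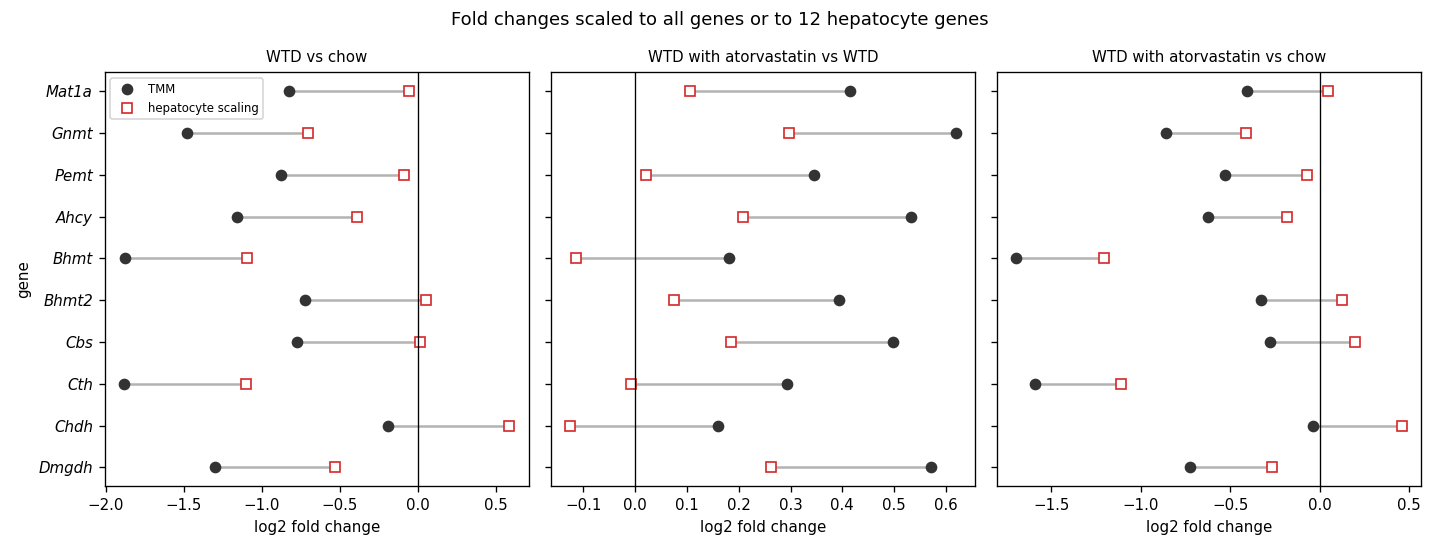
Log2 fold change (horizontal axes) of each gene (vertical axis) with TMM scaling to all genes (filled circles) and with scaling to 12 hepatocyte genes (open squares) in the 3 comparisons. Under hepatocyte scaling Bhmt and Cth stay below -1.0 in both comparisons with chow, while Chdh moves to 0.59 and 0.46.

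Mat1a encodes the liver form of methionine adenosyltransferase, which makes SAM. In chow-fed mice its lowest, median and highest levels were 3118, 3417 and 4174 CPM. The corresponding levels were 1404, 1927 and 3334 CPM on WTD, and 1839, 2501 and 3820 CPM with atorvastatin. Of the 16 WTD-fed mice 15 lay below every chow mouse, and the highest reached into the chow range, as did 5 of the 16 atorvastatin mice. The log2 fold change was -0.82 ± 0.10 (SE) between WTD and chow (adjusted p = 2.5e-09), and with atorvastatin it was 0.42 ± 0.09 relative to WTD (adjusted p = 0.0012) and -0.41 ± 0.10 relative to chow (adjusted p = 0.0014). With hepatocyte scaling the 3 differences were -0.057 (adjusted p = 0.45), 0.11 (0.17) and 0.049 (0.56).

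Gnmt, glycine N-methyltransferase, uses SAM to methylate glycine and is the most abundant methyltransferase of the liver. Its levels were 1472, 2030 and 2776 CPM (lowest, median, highest) on chow, 444, 728 and 1106 CPM on WTD, and 598, 1131 and 1654 CPM with atorvastatin. No WTD-fed mouse reached the lowest chow mouse, and 3 of the 16 atorvastatin mice did. Gnmt fell by 1.48 ± 0.15 on the log2 scale on WTD (adjusted p = 2.5e-11). With atorvastatin it was higher than on WTD by 0.62 ± 0.13 (adjusted p = 0.0010), 8 of 16 mice lying above every WTD mouse, and it remained below chow (-0.86 ± 0.15, adjusted p = 9.3e-06). In proportion to the hepatocyte genes it was still lower on WTD than on chow (-0.71, adjusted p = 6.3e-07), and the difference between atorvastatin and WTD did not pass (0.30, adjusted p = 0.024).

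Pemt encodes phosphatidylethanolamine N-methyltransferase, which makes phosphatidylcholine at the expense of SAM. It varied little among chow mice (346, 366 and 402 CPM; CV 5.33%). On WTD the levels were 166, 202 and 259 CPM and with atorvastatin 184, 273 and 329 CPM. Neither WTD group overlapped with chow, whereas both did with hepatocyte scaling. The log2 fold change was -0.88 ± 0.08 on WTD (adjusted p = 1.3e-12), 0.35 ± 0.08 for atorvastatin relative to WTD (adjusted p = 0.00098) and -0.53 ± 0.08 relative to chow (adjusted p = 1.3e-06). Scaled to hepatocyte genes, none of the 3 passed (-0.09, 0.02 and -0.07; adjusted p = 0.18, 0.80 and 0.33).

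Ahcy encodes S-adenosylhomocysteine hydrolase, which removes the product of every SAM-dependent methylation and releases homocysteine. In chow mice its levels were 1354, 1606 and 1816 CPM. WTD-fed mice had 529, 691 and 1347 CPM, the highest of them just below the lowest chow mouse, and atorvastatin mice had 599, 1022 and 1493 CPM. The fall on WTD was 1.16 ± 0.13 (log2 fold change -1.16, adjusted p = 3.8e-10). Atorvastatin mice were higher than WTD mice by 0.53 ± 0.12 (adjusted p = 0.0013) and lower than chow mice (-0.63 ± 0.13, adjusted p = 0.00016). With hepatocyte scaling Ahcy was lower on WTD than on chow (-0.39, adjusted p = 6.4e-05), and the other differences were 0.21 (adjusted p = 0.030) and -0.18 (adjusted p = 0.064). The annotated genes Gm4737 and Gm9826 share over 95% of a stretch of Ahcy, and they took 8148 counts in all mice together against 923972 for Ahcy, so a small share of reads could be split among them.

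Bhmt and Bhmt2 encode the enzymes that return homocysteine to methionine, Bhmt with betaine and Bhmt2 with S-methylmethionine as methyl donor. Bhmt was the most abundant of the 10 by read number on chow, with 4172, 5802 and 8178 CPM, and the levels were 1125, 1653 and 2340 CPM on WTD and 934, 1823 and 3255 CPM with atorvastatin. Neither WTD group overlapped with chow, under TMM or under hepatocyte scaling. Bhmt fell by 1.88 ± 0.15 on the log2 scale on WTD (adjusted p = 2.1e-14), and the atorvastatin group stayed near the WTD group (0.18 ± 0.13, adjusted p = 0.45) and below chow (-1.70 ± 0.15, adjusted p = 1.0e-12). With hepatocyte scaling the 3 differences were -1.09 (adjusted p = 1.6e-08), -0.11 (0.52) and -1.21 (4.9e-09). Spread among mice was widest with atorvastatin (CV 35.1%, against 21.6% on chow and 19.7% on WTD).

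Bhmt2, the neighbour and paralog of Bhmt, with 73.5% identity over 1116 aligned transcript bases, behaved differently. Chow mice were tightly grouped (259, 280.5 and 314 CPM; CV 4.99%), WTD mice had 135.5, 166 and 246 CPM, and atorvastatin mice had 127, 239 and 297 CPM. All WTD mice lay below all chow mice, whereas 3 atorvastatin mice were within the chow range. Its log2 fold change was -0.72 ± 0.09 on WTD (adjusted p = 5.9e-09), 0.39 ± 0.08 for atorvastatin relative to WTD (adjusted p = 0.00076) and -0.33 ± 0.09 relative to chow (adjusted p = 0.0044). The last call was lost without chow replicate 9, and also without the 8 libraries described below (-0.35, adjusted p = 0.012). With hepatocyte scaling the 3 values were 0.051, 0.076 and 0.13, none of which passed (adjusted p = 0.52, 0.35 and 0.12).

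The ratio of Bhmt to Bhmt2 counts within a mouse does not depend on scaling. Its median was 20.6 on chow, 9.73 on WTD and 8.08 with atorvastatin. The log2 ratio differed from chow by -1.14 ± 0.11 on WTD and by -1.39 ± 0.14 with atorvastatin. Each of these differences had p = 1e-05, the smallest that 100000 permutations can give. The atorvastatin mice (4.17 to 11.9) did not overlap with the chow mice (15.2 to 29.2), whereas the WTD mice (7.82 to 15.5) did. The pseudogene Bhmt-ps1 and Gm5096 share over 95% of a stretch with Bhmt and took 24603 counts against 2415943 for Bhmt.

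Cbs, cystathionine beta-synthase, commits homocysteine to cysteine synthesis, and Cth, cystathionine gamma-lyase, carries out the next step. Cbs levels were 647, 814 and 1057 CPM on chow, 345, 501 and 681 CPM on WTD, and 522, 691 and 871 CPM with atorvastatin. Only 1 WTD mouse reached the chow range, whereas 10 of the 16 atorvastatin mice did. Cbs fell by 0.78 ± 0.10 on the log2 scale on WTD (adjusted p = 4.2e-09). It rose by 0.50 ± 0.09 with atorvastatin relative to WTD (adjusted p = 9.2e-05), with 16 of 16 mice above the WTD median. The difference between atorvastatin and chow did not pass (-0.28 ± 0.10, adjusted p = 0.024). Under hepatocyte scaling the values were 0.013, 0.19 and 0.20 (adjusted p = 0.89, 0.041 and 0.034).

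Cth levels were 489.8, 622 and 719 CPM on chow, 98.2, 153 and 251 CPM on WTD, and 134, 197 and 303 CPM with atorvastatin. All 32 WTD-fed mice, treated or not, lay below the lowest chow mouse, also with hepatocyte scaling. The log2 fold change was -1.88 ± 0.13 on WTD (adjusted p = 4.5e-17) and -1.59 ± 0.13 for atorvastatin relative to chow (adjusted p = 2.5e-14). The difference between both WTD groups did not pass (0.29 ± 0.11, adjusted p = 0.079). Under hepatocyte scaling the fall was -1.10 on WTD (adjusted p = 1.3e-11) and -1.11 with atorvastatin (adjusted p = 3.6e-11), with -0.0089 between the WTD groups. The ratio of Cbs to Cth counts rose from a median of 1.32 on chow (1.15 to 1.67) to 2.98 on WTD (2.23 to 4.63) and 3.56 with atorvastatin (2.46 to 4.40). Both WTD groups were apart from chow (log2 differences of 1.14 ± 0.09 and 1.33 ± 0.08, p = 1e-05 by permutation for both).

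Chdh, choline dehydrogenase, starts the oxidation of choline to betaine in mitochondria. It was the lowest of the 10 genes per kilobase of exon in each group. Chow mice had 182, 202 and 239 CPM, WTD mice 147, 176 and 232 CPM, and atorvastatin mice 172, 202 and 228 CPM. All 3 groups overlapped. No comparison passed, with log2 fold changes of -0.20 ± 0.07 on WTD (adjusted p = 0.014), 0.16 ± 0.06 for atorvastatin relative to WTD (adjusted p = 0.061) and -0.04 ± 0.07 relative to chow (adjusted p = 0.73). The first was called when chow replicate 6 or WTD replicate 3, 15 or 16 was left out. With hepatocyte scaling the sign turned, and Chdh was higher than on chow in both WTD groups (0.59, adjusted p = 6.0e-08, and 0.46, adjusted p = 1.3e-05). Under that scaling the medians of all genes, 0.82 and 0.53, lay above the values of Chdh. Of all genes 62.6% and 44.3% were then called higher.

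Dmgdh encodes dimethylglycine dehydrogenase, which removes a methyl group from the dimethylglycine that Bhmt leaves behind and passes it to folate. Chow mice had 650.2, 728 and 935 CPM, WTD mice 213, 278 and 506 CPM, and atorvastatin mice 305, 463 and 606 CPM. Neither WTD group overlapped with chow, and all 16 atorvastatin mice were above the WTD median. With hepatocyte scaling both WTD groups overlapped with chow. The log2 fold change was -1.30 ± 0.10 on WTD (adjusted p = 1.3e-15), 0.57 ± 0.09 for atorvastatin relative to WTD (adjusted p = 2.7e-05) and -0.73 ± 0.10 relative to chow (adjusted p = 7.6e-08). All 3 calls held with hepatocyte scaling (-0.53, 0.26 and -0.27; adjusted p = 3.1e-09, 0.0013 and 0.0010). Dmgdh and Bhmt2 share their start region but not the size of their change. The ratio of Bhmt2 to Dmgdh counts had a median of 0.389 on chow (0.336 to 0.418), 0.593 on WTD (0.483 to 0.640) and 0.505 with atorvastatin (0.387 to 0.577). The log2 difference was 0.58 ± 0.05 between WTD and chow (p = 1e-05 by permutation) and -0.20 ± 0.05 between atorvastatin and WTD (adjusted p = 0.0012 over all permutation tests of ratios). Of Chdh to Dmgdh the median ratio went from 0.288 on chow to 0.626 on WTD and 0.423 with atorvastatin.

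**Figure D3:**
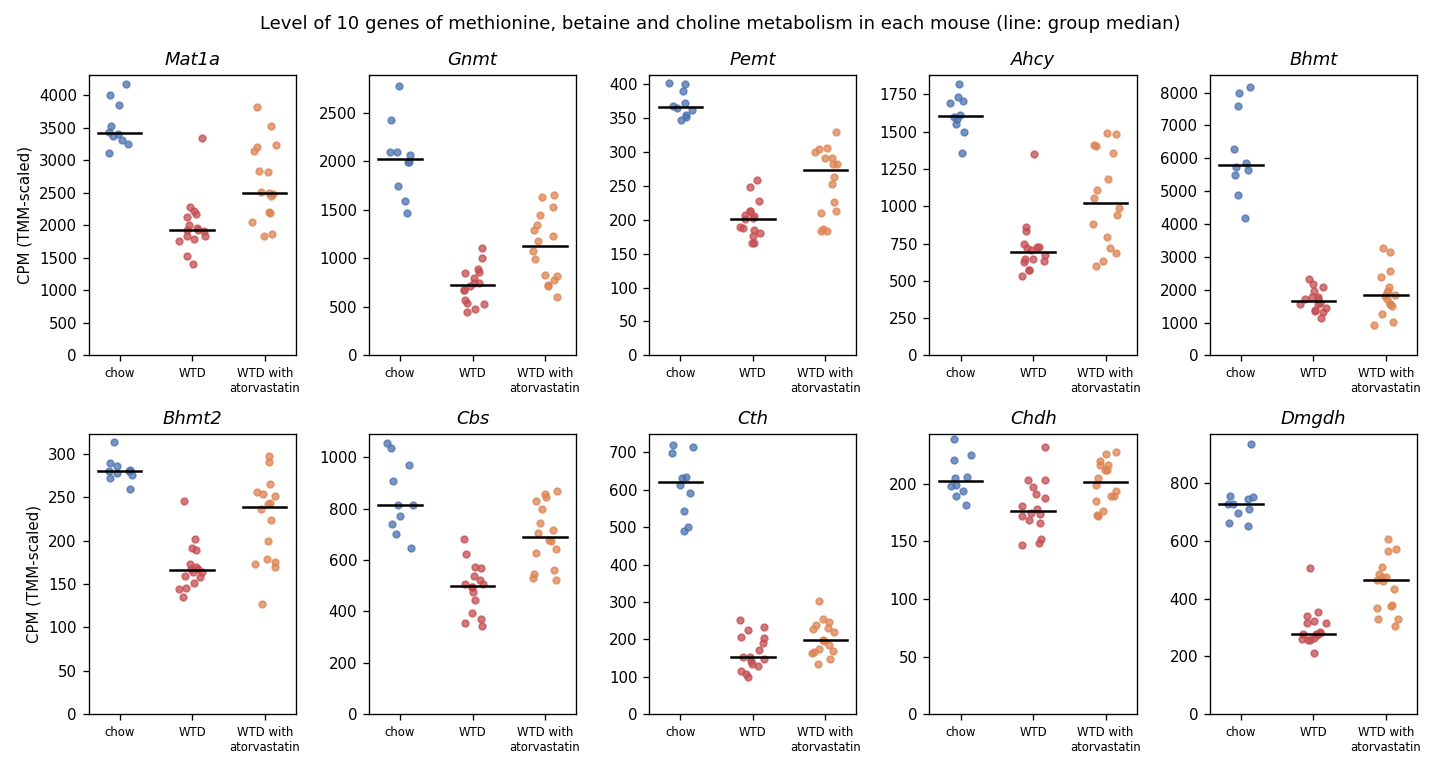
Level of each gene (CPM with TMM-scaled library sizes, linear axes from 0) in each mouse of the chow (n = 10), WTD (n = 16) and WTD with atorvastatin (n = 16) groups; bars are medians. For Bhmt, Cth, Pemt and Dmgdh both WTD groups lie wholly below chow, and for Chdh the 3 groups overlap. With hepatocyte scaling (not drawn) only Bhmt and Cth stay apart from chow. The share of all genes without overlap was not computed.

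The order of the 10 genes changed between diets. Per kilobase of exon, the highest median in chow mice was that of Gnmt (1683 CPM per kilobase), followed by Bhmt (1008), Mat1a (985) and Ahcy (572). The length was the union of all annotated exons of a gene, from 1206 bases for Gnmt to 7485 for Cbs. It can exceed that of the transcript expressed in liver, so the order between genes depends on it. Bhmt and Mat1a were not separated on chow, since Bhmt was the higher in 4 of 10 mice. Cth (223) and Dmgdh (213) were likewise not separated, nor were Bhmt2 (114) and Cbs (109), each being the higher in 5 of 10 mice. Chdh (32.5) was lowest. On WTD, Gnmt (603) and Mat1a (556) led without being separated (Gnmt higher in 8 of 16 mice), Mat1a was above Bhmt (287) in 16 of 16 mice, and Cth (54.8) had moved from rank 5 on chow to rank 9. With atorvastatin the order was Gnmt (938), Mat1a (721), Ahcy (364) and Bhmt (317), the last pair not separated (Ahcy higher in 9 of 16 mice).

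All 45 within-mouse ratios of the 10 genes were compared between the groups, with p values adjusted over all permutation tests of the 3 comparisons. Ratios among other genes were not computed, so the counts below have no share over all genes beside them. Between WTD and chow 36 of the 45 ratios differed at an adjusted p under 0.01, and 18 had no overlap between the groups. Chdh differed from all 9 others, and Gnmt, Bhmt, Ahcy and Cth from 8 each, so the fall was of unequal size. Between atorvastatin and chow 31 of 45 ratios differed and 8 did not overlap. Between atorvastatin and WTD 8 of 45 differed, all groups overlapping, and 5 of the 8 involved Dmgdh. Relative to Dmgdh, the ratios of Mat1a (-0.16 ± 0.05), Bhmt (-0.45 ± 0.13), Bhmt2, Pemt (-0.24 ± 0.06) and Chdh (-0.40 ± 0.10) were lower with atorvastatin. The others were Gnmt to Bhmt (0.47 ± 0.16), Gnmt to Chdh (0.43 ± 0.14) and Cbs to Chdh (0.34 ± 0.09). Without the 8 libraries described next, 1 of these 45 ratios passed.

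Depth was 15661381 to 36224054 counts per mouse, and the least abundant member in any mouse (Cth) had 2298 counts, so counting error was small. Some libraries had no count for many weakly expressed genes. In 8 of them (3 chow, 4 WTD and 1 atorvastatin) over 20% of the genes at 1 to 2 CPM in their own group had no count. Without them all 9 calls between WTD and chow held, but 3 of the 10 genes (Bhmt2, Cbs and Dmgdh) instead of 7 were called between atorvastatin and WTD. The other 4 kept nearly the same difference (Mat1a 0.41, Gnmt 0.55, Ahcy 0.48 and Pemt 0.31; adjusted p = 0.011, 0.016, 0.019 and 0.013). Of all genes 4.88% were called between atorvastatin and WTD without the 8 libraries, against 7.1% with all mice.

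Some mice were the highest or lowest of their group for many of the 10 genes at once. WTD replicate 15 had the highest level of its group for 7 of the 10, and WTD replicate 2 the lowest for 6. Replicate 15 also had the highest hepatocyte marker sum of its group (110189 CPM) and the lowest macrophage sum (2430 CPM), and replicate 2 the lowest hepatocyte sum (53894 CPM) and the highest macrophage sum (4355 CPM). In the atorvastatin group, replicate 1 was lowest for 5 of the 10 and had the highest macrophage sum (3072 CPM). Its hepatocyte sum was 79867 CPM, whereas the lowest, in replicate 2, was 67715 CPM. Replicate 14 was highest for 4 and had the highest hepatocyte sum (132518 CPM) and the lowest macrophage sum (1751 CPM). On chow, replicate 9 was highest for 5 and replicate 4 lowest for 5, with hepatocyte sums of 120826 and 119968 CPM. Chow replicate 7 had the highest hepatocyte sum (164823 CPM) and macrophage sum (635 CPM) of its group and was highest for 1 gene. Without WTD replicate 15, all 10 genes were called lower on WTD than on chow, and the number called with atorvastatin relative to WTD was 7.

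Across the 16 WTD mice all 45 pairs of the genes correlated positively (Spearman's rho 0.34 to 0.93, median 0.66), and 31 had an adjusted p of rho under 0.05 over the permutation tests of all 3 groups. With atorvastatin 25 of 45 pairs passed (rho -0.28 to 0.97), and the 8 pairs with a negative rho were 7 pairs of Chdh and the pair of Bhmt and Pemt. On chow 3 of 45 passed, in 10 mice. The 3 pairs named here had the largest smaller rho over both WTD groups, led by Gnmt and Ahcy. Pearson's r was 0.83 (adjusted p = 0.00022) and rho 0.87 (adjusted p = 0.00067, permutation) on WTD, and r 0.90 (0.00022) and rho 0.88 (0.00051) with atorvastatin. Without the 2 mice farthest from the median of Gnmt, r was 0.81 and 0.85. Mat1a and Bhmt2 followed, with r 0.87 (adjusted p = 0.00090) and rho 0.80 (0.0034) on WTD and r 0.80 (0.0011) and rho 0.86 (0.00093) with atorvastatin, and r 0.63 and 0.73 without the 2 farthest mice. Gnmt and Cth had r 0.83 (adjusted p = 0.00096) and rho 0.85 (0.00096) on WTD and r 0.72 (0.0069) and rho 0.76 (0.0064) with atorvastatin, and r 0.84 and 0.65 without the 2 farthest mice. After hepatocyte scaling 1, 3 and 4 pairs passed on chow, on WTD and with atorvastatin, so most of these relations depend on the scaling. Mat1a and Bhmt2 then passed in neither WTD group (rho 0.49, adjusted p = 0.23, and 0.38, adjusted p = 0.36, permutation). Gnmt and Ahcy passed with atorvastatin (rho 0.76, adjusted p = 0.019, permutation) but not on WTD (0.63, 0.092), and Gnmt and Cth on WTD (0.82, 0.016) but not with atorvastatin (0.47, 0.24). The labels name no batch, though their prefix differs between chow (AZ) and both WTD groups (Gen), and relations within batches could not be computed.

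**Figure D4:**
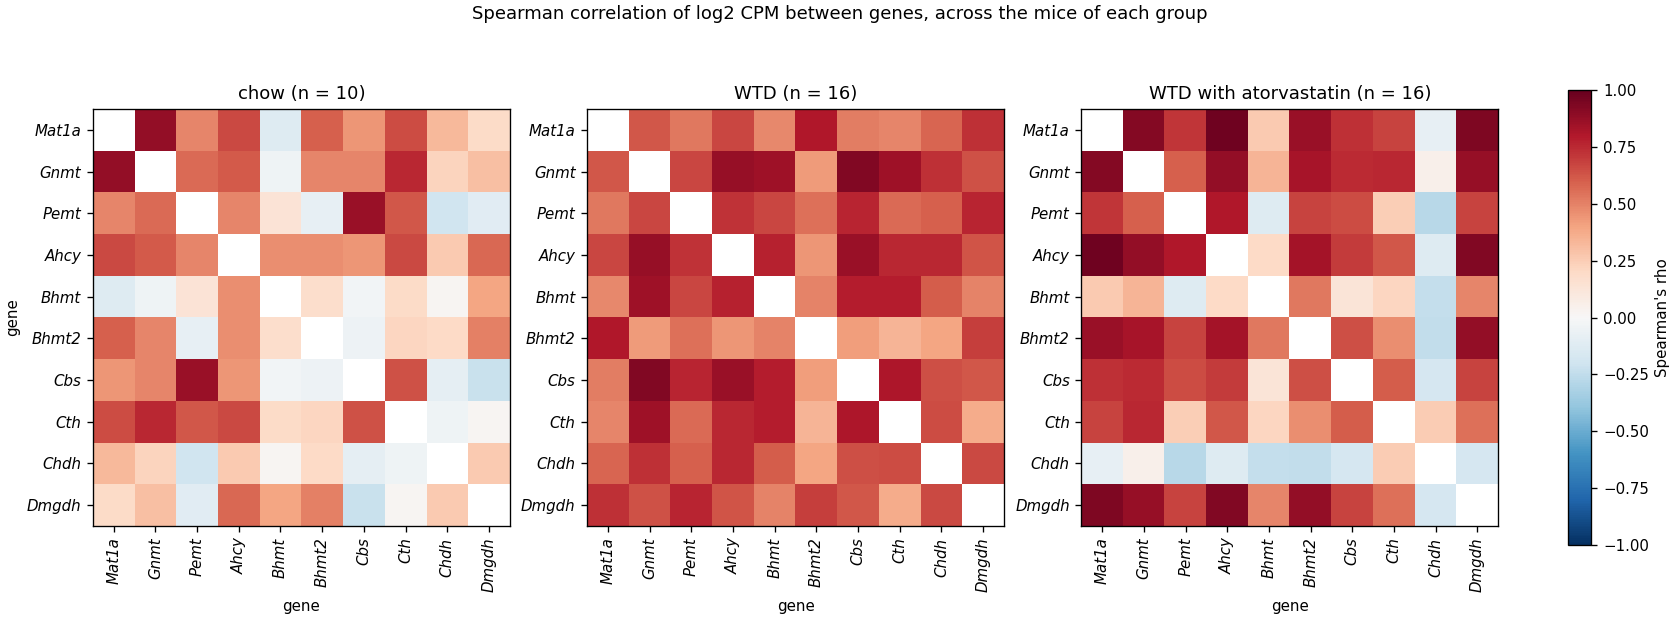
Spearman's rho (color, -1 to 1) between log2 CPM of each pair of the 10 genes (both axes) across the mice of each group. All squares are positive on WTD, with rho from 0.34 to 0.93, whereas the row of Chdh is mostly below 0 with atorvastatin.

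The surroundings of the pathway were described with 77 further genes in 6 lists, of which 75 were tested. These lists too were chosen with earlier results of these data known. On WTD 45 of the 75 were called relative to chow, 9 higher and 36 lower (60% of the list against 33.5% of all genes), and the median log2 fold change was -0.26. With hepatocyte scaling the split turned to 42 higher and 11 lower, where 62.6% of all genes were higher and 2.22% lower. Between atorvastatin and WTD 19 were called (25.3% against 7.1% of all genes), 18 higher and 1 lower. Hepatocyte scaling turned this to 7 higher and 12 lower, against 0.905% and 17.3% of all genes. Between atorvastatin and chow 29 were called (38.7% against 25% of all genes), 7 higher and 22 lower. Hepatocyte scaling turned this to 33 higher and 6 lower, against 44.3% and 1.72% of all genes.

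The list with the lowest median on WTD was the further oxidation of betaine to glycine. Of its 10 tested genes 9 were lower on WTD than on chow (median -0.77). With atorvastatin 5 were higher than on WTD and 7 lower than on chow. The shares of all genes in these directions were 16%, 4.84% and 10.7%. Hepatocyte scaling left 2 lower (Pipox and Sardh) and 3 higher (Dld, Etfa and Etfdh) between WTD and chow. Of all genes 2.22% were then lower and 62.6% higher. Aldh7a1, an enzyme that can form betaine from its aldehyde, had log2 fold changes of -0.76 on WTD and 0.39 with atorvastatin relative to WTD, both called, and of 0.02 and 0.09 after hepatocyte scaling. Sardh, which acts on sarcosine, the product of both Gnmt and Dmgdh, fell by 1.09 on WTD and was higher by 0.51 with atorvastatin, and hepatocyte scaling left -0.33 (called) and 0.21 (not called). Pipox, a peroxisomal sarcosine oxidase, fell by 1.04 and was 0.53 higher with atorvastatin, and both remained called after hepatocyte scaling (-0.27 and 0.21). Gldc, of the glycine cleavage system, had the smallest p of this list between atorvastatin and WTD (0.79 ± 0.13, adjusted p = 3.7e-05; 0.48 with hepatocyte scaling, called). Gcsh, of the same system, had the smallest p between atorvastatin and chow (-0.53 ± 0.08, adjusted p = 1.1e-07), a difference of -0.06 after hepatocyte scaling.

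Other steps of the methionine cycle were less uniform. Of 10 genes 2 were higher and 4 lower on WTD than on chow, where 17.5% and 16% of all genes were. Hepatocyte scaling turned this to 8 higher and 1 lower, where 62.6% of all genes were higher and 2.22% lower. Mtr, methionine synthase, which uses folate in place of betaine, had 0.41 on WTD (adjusted p = 0.035), 0.07 with atorvastatin relative to WTD and 0.48 relative to chow (adjusted p = 0.017). With hepatocyte scaling Mtr was called higher than on chow both on WTD (1.204, adjusted p = 4.1e-08) and with atorvastatin (0.96, adjusted p = 6.7e-06). The medians of all genes relative to chow were 0.82 and 0.53 under that scaling. Mat2a, another methionine adenosyltransferase, was higher on WTD than on chow (0.39, adjusted p = 0.0013), opposite to Mat1a, and hepatocyte scaling raised this to 1.18. Nnmt, which spends SAM on nicotinamide, had a log2 fold change on WTD close to those of Bhmt and Cth. It had 123, 175 and 244 CPM on chow, 24.2, 49.9 and 83.6 CPM on WTD, and 34.4, 42.3 and 101 CPM with atorvastatin, and both WTD groups lay below chow. Its log2 fold changes were -1.89 ± 0.18 on WTD (adjusted p = 1.2e-11) and -1.81 ± 0.18 with atorvastatin relative to chow (adjusted p = 9.3e-11), and they were -1.10 and -1.29 after hepatocyte scaling, both called. Gamt and Gatm make creatine, Gamt with SAM. Gamt fell on WTD (-0.88 ± 0.13, adjusted p = 9.4e-08; -0.12 with hepatocyte scaling, not called), and Gatm was higher (0.90 ± 0.10, adjusted p = 8.1e-11; 1.69 with hepatocyte scaling). Gatm was named after its values were seen, and a link of these changes to the use of SAM was not tested. With atorvastatin Gamt was higher than on WTD (0.43 ± 0.11, adjusted p = 0.0058) and 0.12 after hepatocyte scaling, not called.

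Folate metabolism supplies methyl groups to Mtr and accepts those from Dmgdh and Sardh. In its list 8 of 18 genes were lower and 1 higher on WTD, and 5 were higher with atorvastatin than on WTD. The shares of all genes were 16%, 17.5% and 4.84%. With hepatocyte scaling 3 were lower and 7 higher on WTD, and 4 were higher with atorvastatin. Of all genes 2.22%, 62.6% and 0.905% were so called. Fpgs, which traps folate in cells, had the smallest p on WTD (-1.29 ± 0.10, adjusted p = 3.8e-15; -0.49 with hepatocyte scaling, called). Ftcd, which passes the carbon of histidine to folate, fell by 1.03 ± 0.11 (adjusted p = 1.2e-10) and had the smallest p between atorvastatin and WTD (0.60 ± 0.10, adjusted p = 6.0e-05; 0.30 with hepatocyte scaling, called). Mthfd1 (-0.82 on WTD, 0.57 with atorvastatin) and Shmt1 (-0.96 and 0.66) were called in both comparisons, and after hepatocyte scaling only the difference between atorvastatin and WTD passed (0.26 and 0.34).

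In the list of choline uptake and phosphatidylcholine synthesis 7 of 16 genes were lower and 3 higher on WTD than on chow. With atorvastatin 4 were higher than on WTD. The shares of all genes were 16%, 17.5% and 4.84%. Hepatocyte scaling turned the counts to 2 lower and 9 higher on WTD, and to 1 higher and 3 lower with atorvastatin. Of all genes 2.22% and 62.6%, and 0.905% and 17.3%, were so called. Chka, which phosphorylates choline (-0.24, -0.48 and -0.72 in the 3 comparisons; adjusted p = 0.46, 0.16 and 0.020), and Pcyt1a, the regulated enzyme of the choline route (-0.18, 0.22 and 0.05; adjusted p = 0.059, 0.020 and 0.69), did not pass. With hepatocyte scaling Pcyt1a was called higher than on chow both on WTD (0.61, adjusted p = 6.2e-08) and with atorvastatin (0.53, adjusted p = 2.0e-06), and Chka did not pass (0.61, -0.80 and -0.19). Under that scaling the medians of all genes relative to chow were 0.82 and 0.53, and 62.6% and 44.3% were called higher. Pcyt2, its counterpart in the ethanolamine route that makes the substrate of Pemt, fell by 1.11 ± 0.11 on WTD (adjusted p = 5.3e-12) and was still lower than chow with atorvastatin (-0.69 ± 0.11, adjusted p = 1.5e-06). Both calls held with hepatocyte scaling (-0.32 and -0.24). Slc6a12, a carrier of betaine, fell by 1.09 ± 0.14 on WTD (adjusted p = 1.1e-08) and was higher with atorvastatin than on WTD (0.81 ± 0.13, adjusted p = 2.8e-05), and both calls held with hepatocyte scaling (-0.32 and 0.48).

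Downstream of Cth, in the list of cysteine, taurine and glutathione, 7 of 11 genes were lower and 1 higher on WTD than on chow. With atorvastatin 2 were higher than on WTD. The shares of all genes were 16%, 17.5% and 4.84%. With hepatocyte scaling 3 were lower and 5 higher on WTD, and 2 were lower with atorvastatin. Of all genes 2.22%, 62.6% and 17.3% were so called. Cdo1, which oxidizes cysteine toward taurine, fell by 0.68 on WTD (adjusted p = 5.6e-07; 0.10 with hepatocyte scaling, not called). Gclc, the catalytic subunit for glutathione synthesis, was not called (0.21, 0.21 and 0.42 in the 3 comparisons; adjusted p = 0.20, 0.25 and 0.0101), but with hepatocyte scaling it was called higher than on chow both on WTD (1.01, adjusted p = 5.4e-06) and with atorvastatin (0.95, adjusted p = 2.6e-05). The medians of all genes relative to chow were then 0.82 and 0.53. Suox, sulfite oxidase, had the smallest p of the list on WTD (-0.88 ± 0.08, adjusted p = 4.6e-14) and between atorvastatin and WTD (0.34 ± 0.07, adjusted p = 0.00033), with -0.10 and 0.04 after hepatocyte scaling. Ethe1, which oxidizes sulfide products in mitochondria, had it between atorvastatin and chow (-1.02 ± 0.12, adjusted p = 1.2e-09; -0.53 with hepatocyte scaling, called).

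Polyamine synthesis and methionine salvage, which consume SAM by another route, had 2 of 10 genes higher and 1 lower on WTD than on chow, near the 17.5% and 16% of all genes. With hepatocyte scaling 10 were higher, where 62.6% of all genes were. Sat1, which acetylates polyamines for breakdown, had the smallest p of the list in each comparison. It was higher on WTD than on chow (1.28 ± 0.10, adjusted p = 2.6e-15), lower with atorvastatin than on WTD (-0.45 ± 0.09, adjusted p = 0.00022) and higher with atorvastatin than on chow (0.84 ± 0.10, adjusted p = 1.7e-09). These directions were the same with hepatocyte scaling (2.09, -0.75 and 1.33). Odc1, the first enzyme of polyamine synthesis, was not called (-0.05, -0.13 and -0.18), though with hepatocyte scaling it was called higher on WTD (0.76) and lower with atorvastatin than on WTD (-0.41). The medians of all genes in these 2 comparisons were 0.82 and -0.30 under that scaling.

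**Figure D5:**
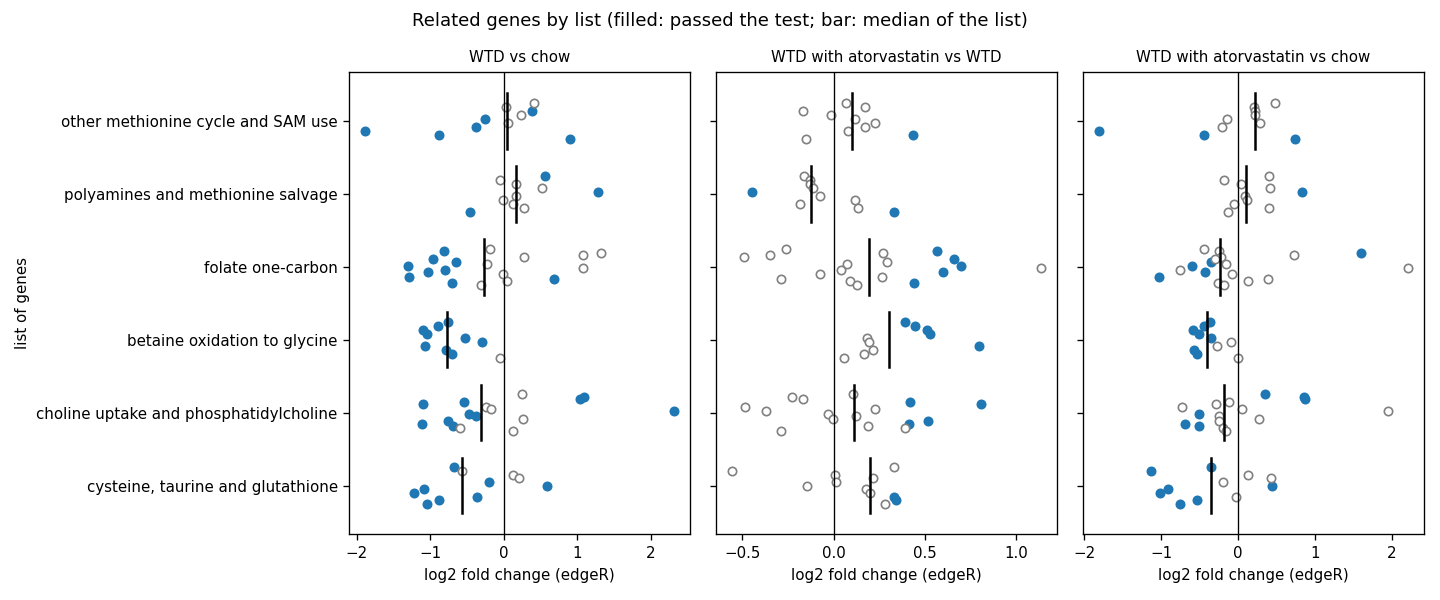
Log2 fold change (horizontal axes, edgeR with TMM) of the 75 tested related genes by list (vertical axis) in the 3 comparisons; filled points passed an adjusted p under 0.01 and bars are list medians. Betaine oxidation has the lowest median between WTD and chow (-0.77) and the highest between atorvastatin and WTD (0.30).

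Across the 42 mice, the gene whose deviations from the group means were most like those of a member was sought among the other tested genes. The measure was the mean absolute difference of standardised deviations, which had a median of 1.11 to 1.16 over all genes. The closest were Pm20d1 for Mat1a (0.299), Aldh1l1 for Gnmt (0.321), Aldh9a1 for Bhmt2 (0.373), Slc27a5 for Ahcy (0.270), Got1 for Cbs (0.341), Hgd for Cth (0.518), Tm7sf2 for Pemt (0.415), Prodh for Dmgdh (0.349) and Gm14403 for Chdh (0.632). For Bhmt it was Gm5096 (0.484), which shares sequence with Bhmt as given above, so shared reads cannot be told apart from shared variation. All values describe the same 42 libraries and share their depth and scaling.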

How the data were processed

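RNA of 42 livers was sequenced, and the authors aligned the reads to GRCm38 with STAR 2.5 and counted read pairs per gene with HTSeq 0.6.1p1, giving the deposited counts per gene, not normalized. The libraries were strand-specific, and the strand setting of the counting is not given in the sources used here. Rows that name no gene were left out, with mean shares of 2.28% for no feature, 5.95% for ambiguous and 4.68% for not unique alignments.

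The counts were tested with edgeR 4.0.16 (R 4.3.3; quasi-likelihood, robust, TMM, filterByExpr with a minimum count of 10) in 1 fit of all 42 mice and 3 groups, with Benjamini-Hochberg adjustment over 15574 genes and a threshold of 0.01. Each replicate was a separate mouse, numbered in accession order. CPM used TMM-scaled library sizes. Fold changes are log2. On simulated counts for WTD and chow with 15574 genes, 173 of 200 genes given a log2 fold change of 1, up or down in equal numbers, were recovered with 0 false calls. The simulation gave every gene the same dispersion and left the other genes unchanged. It held no libraries that miss weak genes, so it does not cover such libraries or broad shifts between groups. Ratios and correlations were tested by 100000 two-sided permutations, or by exact enumeration where possible. The ratio tests and the analyses of ratios and pairs under other settings were added after the data were seen. Alternatives were DESeq2 1.42.0, limma 3.58.1 (voom), other scalings and filters, and leaving out mice.

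The members and lists were chosen with earlier results of these data known. Named genes were all members, 14 fixed related genes, the gene of smallest p in each related list and comparison, and the gene most alike each member. A gene of the fixed related genes is not reported here. Gatm, Dld, Etfa and Etfdh were named after their values were seen. Positions are from GENCODE vM21 and promoters from RefSeq (GRCm38.p6). No protein sequence was used here.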

Additional observations from a re-analysis of the deposited data

Results flagged for a closer look

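Dmgdh in the highest chow-fed mouse, replicate 9, was 934.7 CPM, while the chow median was 728 CPM. Its distance from the nearest mouse, divided by the range of the 10 chow mice, exceeded Dixon's 95% critical value for 10 samples. Of the 10 genes tested this way in the chow group, 1 was past its limit, and chance gives about 1 in 20. The same mouse was the highest chow mouse for 5 of the 10 genes. Without it Dmgdh remained called in each comparison.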

How the results depend on the processing

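Between WTD and chow the 9 calls held under other normalizations (RLE, upper quartile), DESeq2, limma-voom, other filters and without the 8 libraries that missed many weak genes. With hepatocyte scaling 1 of the 10 genes was called between atorvastatin and WTD and 5 between atorvastatin and chow. The sign turned for Bhmt2 (0.051), Cbs (0.013) and Chdh (0.59) between WTD and chow, for Bhmt (-0.11), Cth (-0.0089) and Chdh (-0.13) between atorvastatin and WTD, and for Mat1a (0.049), Bhmt2 (0.13), Cbs (0.20) and Chdh (0.46) between atorvastatin and chow. Pairs with correlated levels fell from 59 to 8. The cause was not tested. Without the 8 libraries 3 of the 10 genes were called between atorvastatin and WTD, in 34 mice, and 1 of 45 ratios instead of 8. Of all genes 4.88% were then called in this comparison, against 7.1% with all mice. A minimum size of 1 for the log2 fold change, up or down, left 5, 0 and 2 of the 10 genes and 16, 0 and 5 related genes in the 3 comparisons. The share of all genes at that size was not computed. With limma-voom 35 related genes were called between atorvastatin and WTD. Of all genes 20.2% were called there with limma-voom, against 7.1% with edgeR. Of all genes, 754 were called higher and 352 lower between atorvastatin and WTD with TMM, and 582 higher and 479 lower with RLE. Leaving out each mouse in turn gave 9 to 10, 7 to 7 and 7 to 8 of the 10 genes, and 41 to 47, 17 to 23 and 26 to 33 related genes. No paired analysis was possible because the numbers in the labels name different mice in each group.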
